A study of Rattus norvegicus with 6 samples.

Results

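Transcripts of 10 genes that the tumour suppressor p53 is known to activate were followed in the renal cortex of rats given N-nitrosodimethylamine (NDMA). The group is named p53 targets outside apoptosis. The genes were Plk2, Mdm2, Ccng1, Phlda3, Tp53inp1, Btg2, Aen, Perp, Gadd45a and Gdf15. Every probe annotated to a RefSeq transcript of these genes was taken, which gave 17 of the 61657 non-control probes of the array and 10 of the 15284 genes that its probes name. The 4 genes Plk2, Phlda3, Tp53inp1 and Gadd45a had 1 probe each, 5 had 2 and Aen had 3. All 17 probes were well above background on all 6 arrays, so none was lost to the filter on dim probes, which left 43118 probes and 12175 named genes in the test. The label of the group is loose for some members, since Aen and Perp, for example, are also described as effectors of apoptosis.

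The 6 animals were male Sprague-Dawley rats of the Crl:CD(SD) stock, bought at 5 weeks of age and kept on a basal diet. The control group (n = 3) was given water for 4 weeks, and the treated group (n = 3) received NDMA at 4 mg/kg/day over the same time; the route is not given in the sources used here. NDMA is a nitrosamine that liver and kidney enzymes oxidise to a species that methylates DNA. Total RNA of the cortex was labelled with Cy3 and hybridised to a 1-colour Agilent array, 1 array per animal, so the cells that carried a transcript are not known and a change in RNA per cell cannot be told apart from a change in the number of cells.

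When DNA is damaged, kinases of the damage response stabilise p53, which binds pairs of short half-sites near its target genes and raises their transcription. Some targets stop the cell cycle, some repair DNA or adjust metabolism, some kill the cell, and a few, such as Mdm2, feed back to switch p53 off. In the kidney this response is best known from acute tubular injury and from genotoxic drugs such as cisplatin.

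Promoter sequences are given for the members on which the values below turn: Plk2, Ccng1 and Phlda3, which had the largest differences, and Aen and Gadd45a, which hold a p53 half-site. The sequences are from RefSeq (GRCr8), 250 bases before to 50 after the annotated start, written 5′ to 3′ on the strand of the gene; the array's own annotation names build rn4, and no probe coordinate was used. The windows are chr2:43702286-43702585 (plus strand) for Plk2, chr10:25684827-25685126 (minus) for Ccng1, chr13:49744753-49745052 (plus) for Phlda3, chr1:142224283-142224582 (plus) for Aen and chr4:97486750-97487049 (minus) for Gadd45a. Capitals mark a p53 half-site or full p53 element, and in Plk2 a cAMP response element.
Plk2: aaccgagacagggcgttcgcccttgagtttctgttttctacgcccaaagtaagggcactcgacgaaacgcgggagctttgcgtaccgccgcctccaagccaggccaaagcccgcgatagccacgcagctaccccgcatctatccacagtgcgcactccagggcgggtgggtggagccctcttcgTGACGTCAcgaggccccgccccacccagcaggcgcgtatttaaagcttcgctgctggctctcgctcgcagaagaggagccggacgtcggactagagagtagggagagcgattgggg
Ccng1: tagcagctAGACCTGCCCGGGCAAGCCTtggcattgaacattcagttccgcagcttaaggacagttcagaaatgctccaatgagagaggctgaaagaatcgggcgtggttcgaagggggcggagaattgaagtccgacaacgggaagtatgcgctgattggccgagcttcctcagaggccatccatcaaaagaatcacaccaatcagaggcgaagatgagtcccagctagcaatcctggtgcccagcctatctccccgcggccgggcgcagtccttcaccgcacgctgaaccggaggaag
Phlda3: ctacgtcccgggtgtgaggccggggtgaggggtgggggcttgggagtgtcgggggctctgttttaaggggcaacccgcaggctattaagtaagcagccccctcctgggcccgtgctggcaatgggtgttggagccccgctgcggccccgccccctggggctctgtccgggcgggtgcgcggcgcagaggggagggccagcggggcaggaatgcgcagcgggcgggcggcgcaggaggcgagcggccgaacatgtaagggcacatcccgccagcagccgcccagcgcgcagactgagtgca
Aen: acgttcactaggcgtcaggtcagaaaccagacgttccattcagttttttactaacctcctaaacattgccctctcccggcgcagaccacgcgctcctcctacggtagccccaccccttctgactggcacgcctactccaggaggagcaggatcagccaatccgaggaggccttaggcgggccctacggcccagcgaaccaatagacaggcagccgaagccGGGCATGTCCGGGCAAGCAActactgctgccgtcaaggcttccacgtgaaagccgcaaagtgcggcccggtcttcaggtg
Gadd45a: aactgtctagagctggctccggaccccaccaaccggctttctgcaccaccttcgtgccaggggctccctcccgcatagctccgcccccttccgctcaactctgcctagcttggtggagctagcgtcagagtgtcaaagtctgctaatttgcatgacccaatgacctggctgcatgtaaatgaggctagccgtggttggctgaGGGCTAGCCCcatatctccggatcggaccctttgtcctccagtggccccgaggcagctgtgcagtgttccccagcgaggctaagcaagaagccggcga

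The table of promoters held windows for 9 of the 10 genes, with 2 starts for Gdf15 and none for Tp53inp1. The p53 half-site, a degenerate motif of 10 letters searched on both strands, was found in 3 of the 10 windows and in 8.0% of all 33469 windows. It lay at position -232 from the start in Ccng1, at -30 in Aen and at -48 in Gadd45a. A full element of 20 letters, 2 half-sites end to end with up to 2 letters off, overlapped the half-site in Ccng1 (AGACCTGCCCGGGCAAGCCT, 1 letter off) and in Aen (GGGCATGTCCGGGCAAGCAA, 2 letters off), and occurred in 0.87% of all windows. The cAMP response element TGACGTCA was found in Plk2 at -66 and in Btg2 at -201, against 1.8% of all windows, and the GC box GGGCGG in 8 of the 10 windows against 33.1%. These windows were rich in G and C, from 56.7% to 72.3% in the 10 windows against a median of 51.7% over all. The windows of Plk2, Phlda3 and Mdm2 held no half-site, and a match or its absence in this stretch says nothing about binding elsewhere in the gene.

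Values are log2 of the background-subtracted signal minus the 75th percentile of its own array, so 0 is the level of a fairly bright probe and 1 unit is a doubling. Such values compare one probe across animals and do not rank genes against each other. Differences are NDMA minus control with the standard error (SE) of limma, and p-values are two-sided and Benjamini-Hochberg adjusted over the 43118 probes. A change is called at an adjusted p under 0.05.

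Of the 10 genes, 1 rose after NDMA by its brightest probe, 0 fell and 9 did not pass. At an unadjusted p under 0.05, in limma, 7 were higher and 1 lower, where 10.1% of named genes were higher and 10.1% lower. At the adjusted threshold 4.05% of the 12175 named genes were called, 3.56% higher and 0.485% lower. Of the 17 probes, 2 were called, those of Plk2 and the dimmer probe of Ccng1, both higher, against 2.99% of all probes tested (2.5% higher and 0.485% lower). The 3 treated animals lay above the 3 controls without overlap for the brightest probes of 5 genes (Plk2, Mdm2, Ccng1, Phlda3 and Tp53inp1), where 12% of named genes did so. They lay below the controls for 2 genes (Perp and Gadd45a), where 17.3% of named genes did so, and the 2 directions together made up 29.3%. Of the 17 probes 8 lay above and 2 below, where 10.9% and 16% of all probes tested did so, 26.9% together. The median log2 difference of the 10 genes was 0.57, beside -0.04 over all named genes tested.

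**Figure D1:**
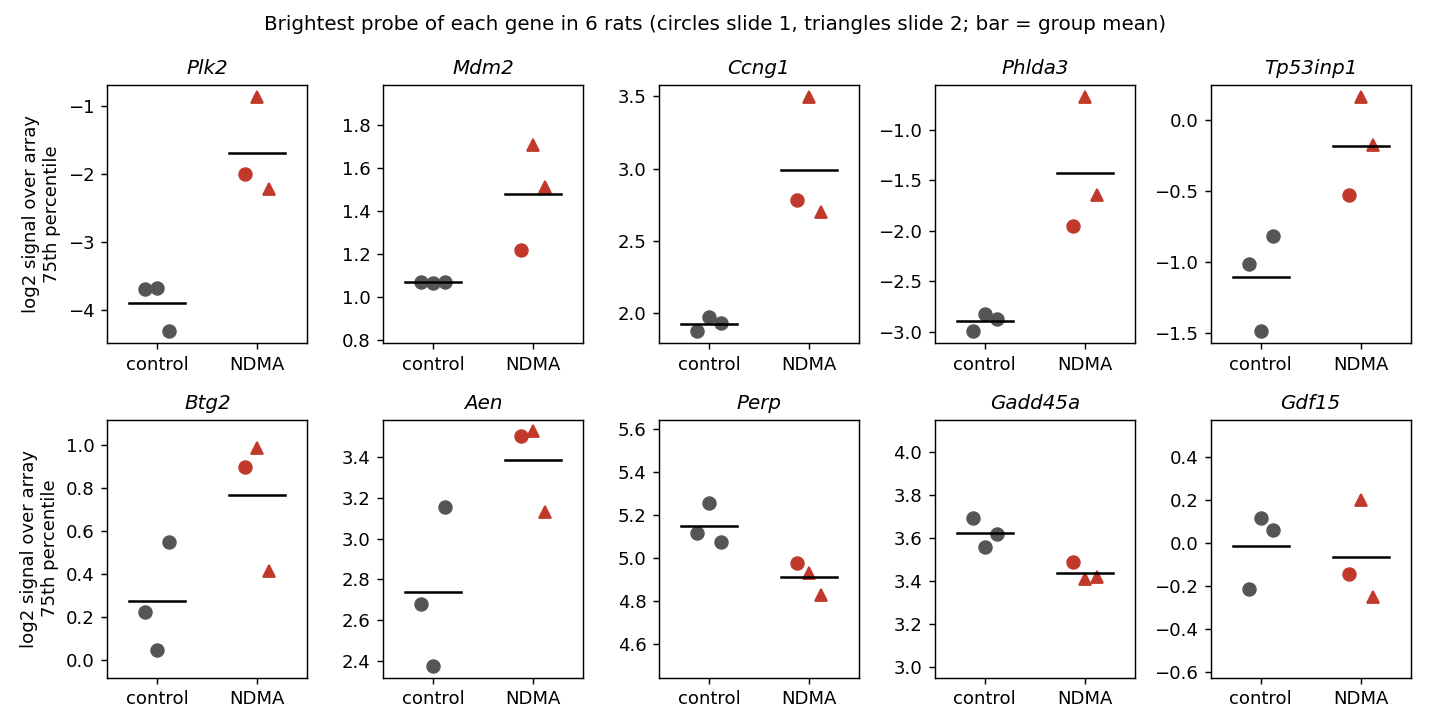
Log2 signal over the 75th percentile of the array for the brightest probe of each of the 10 genes, 1 panel per gene with its own vertical scale, in 3 control and 3 NDMA-treated rats; circles are animals on slide 1, triangles on slide 2 and bars are group means. Plk2, Mdm2, Ccng1, Phlda3 and Tp53inp1 show no overlap of the groups, with the treated animals higher, and Perp and Gadd45a show none with the treated animals slightly lower.

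By brightest probe, Plk2, Phlda3 and Ccng1 had the largest differences of the 10 genes, and Plk2 was the one that passed. Plk2, a polo-like kinase that acts in centriole duplication and in checkpoint signalling, was at -3.69, -3.67 and -4.31 in control animals 1 to 3 and at -2.00, -0.87 and -2.22 in NDMA animals 1 to 3. The lowest treated animal stood 1.46 above the highest control. Plk2 rose 4.59-fold (2.20 ± 0.38 SE, n = 3 per group, adjusted p = 0.0374), and 0.281% of all probes tested had a larger difference. With normexp background correction the log2 difference of Plk2 was 1.30 (adjusted p = 0.0378), the probe being a dim one. Normexp was run on the median spot signal with an offset of 50 added. Such an offset makes the log2 differences of dim probes smaller, here and in the normexp values below. The call was lost on leaving out control 1, 2 or 3 (adjusted p = 0.101, 0.0950 and 0.0980) or NDMA animal 1 or 3 (0.0673 and 0.0644), and held without NDMA animal 2 (1.78, adjusted p = 0.0416).

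Ccng1 encodes cyclin G1, which recruits a phosphatase to MDM2 and is a long-known p53 target in rodents. Its brightest probe read 1.88, 1.97 and 1.93 in the controls and 2.78, 3.50 and 2.70 in the treated animals. All 3 treated animals were above the controls, whose SD was 0.05 against 0.44 in the treated group. The difference was 1.07 ± 0.21 (2.10-fold, adjusted p = 0.0588), just short of a call. The other probe read -0.68, -0.51 and -0.79 in the controls and 0.31, 1.24 and 0.46 after NDMA. By that probe the transcript was 2.51-fold higher (1.33 ± 0.25, adjusted p = 0.0483), a call that was lost with scaling on the median of each array (adjusted p = 0.0548), with quantile normalisation (0.0534), and in 5 of the 6 fits without 1 animal, all but that without NDMA animal 2 (0.0353). The brightest probe was called with normexp (adjusted p = 0.0313). Both probes read 1 RefSeq transcript, and the p53 element printed above lies in the promoter window of the same gene.

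Phlda3, a pleckstrin-homology protein that restrains AKT at the membrane, read -2.99, -2.82 and -2.88 in the controls and -1.95, -0.67 and -1.65 after NDMA. The controls lay within a narrow band and the treated animals were spread widely, with SDs of 0.09 and 0.67. The difference was 1.47 ± 0.32 (2.78-fold, adjusted p = 0.0726). It passed with normexp (1.19, adjusted p = 0.0489) and without NDMA animal 2, the highest one (1.097, adjusted p = 0.0354).

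Tp53inp1, a nuclear and autophagy protein that assists p53 phosphorylation, read -1.02, -1.49 and -0.82 in the controls and -0.53, 0.16 and -0.18 after NDMA. The groups did not overlap, by a margin of 0.29. The difference was 0.93 ± 0.23 (1.90-fold, adjusted p = 0.111), and Tp53inp1 was not called under any of the alternative settings.

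Mdm2, the ubiquitin ligase that p53 induces and that degrades p53 in turn, read 1.07, 1.06 and 1.07 in the controls by its brightest probe. The treated animals read 1.22, 1.71 and 1.51, each above all controls. The difference of 0.41 ± 0.13 (1.33-fold, 95% interval 0.09 to 0.73) had an adjusted p of 0.183. The control SD of 0.0019 on this probe was the smallest of the 17 probes. The other probe of Mdm2 read from -1.33 to -1.16 in the controls and from -0.99 to -0.55 in the treated animals, again without overlap, with a difference of 0.49 ± 0.13 (adjusted p = 0.125), or 0.28 with normexp (adjusted p = 0.129).

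**Figure D2:**
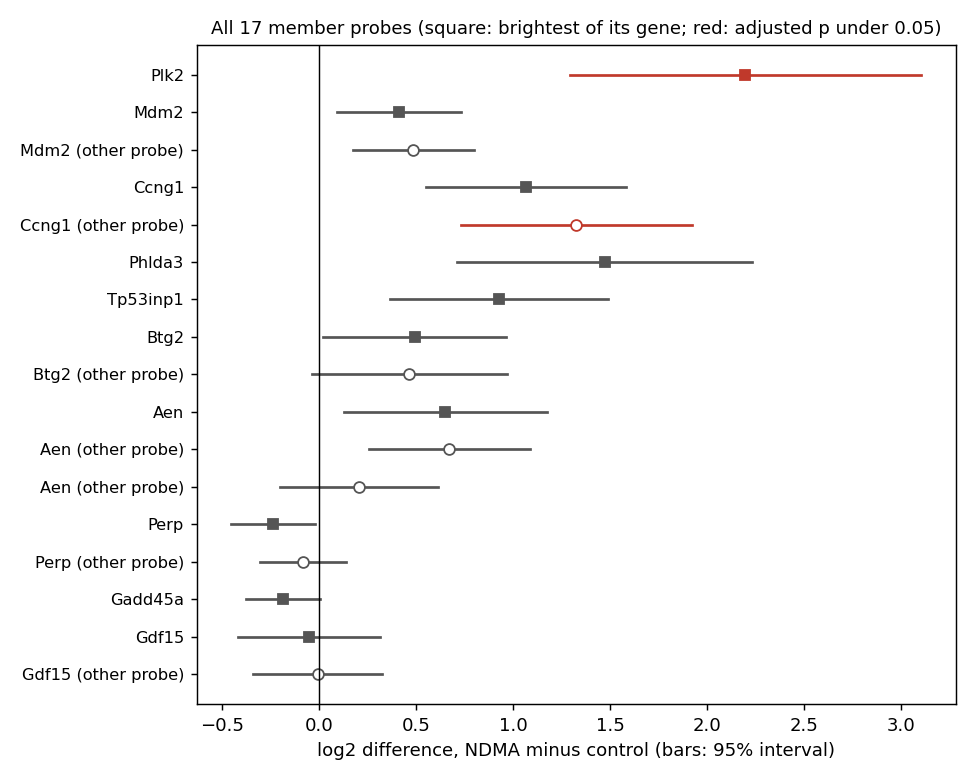
Log2 difference, NDMA minus control, with its 95% interval from limma (not adjusted for the number of probes) for all 17 probes; squares are the brightest probe of a gene, open circles its other probes, and red marks an adjusted p under 0.05. The probe of Plk2 at 2.20 and the dimmer probe of Ccng1 at 1.33 are the 2 in red, and probes of the same gene lie close together, those of Aen excepted.

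The brightest probes of Btg2, Aen and Gdf15 overlapped between groups, and those of Perp and Gadd45a lay slightly lower after NDMA. Btg2, an antiproliferative factor of the BTG/TOB family and also an immediate early gene, read 0.22, 0.05 and 0.55 in the controls and 0.90, 0.99 and 0.41 after NDMA. NDMA animal 3 lay below control 3, and the difference was 0.49 ± 0.20 (adjusted p = 0.258), or 0.47 ± 0.21 by the other probe (adjusted p = 0.301). Aen, a nuclease that digests DNA and RNA after damage, was read by 3 probes that differed in size. The brightest gave 2.68, 2.38 and 3.15 in the controls and 3.51, 3.53 and 3.13 after NDMA, a difference of 0.65 ± 0.22 (adjusted p = 0.196) in which NDMA animal 3 lay just within the control range. The second differed by 0.67 ± 0.17 without overlap (adjusted p = 0.116), and the third by 0.21 ± 0.17 with overlap (adjusted p = 0.545).

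Perp, a membrane protein of desmosomes, read 5.12, 5.26 and 5.07 in the controls and 4.98, 4.93 and 4.83 after NDMA by its brightest probe. All treated animals were slightly below the controls, and the difference was -0.24 ± 0.09 (95% interval -0.45 to -0.02, adjusted p = 0.240). The other probe of Perp overlapped between groups, at -0.08 ± 0.09 (adjusted p = 0.654). Gadd45a, a stress protein that acts on PCNA and on MAP kinase signalling, read 3.69, 3.56 and 3.62 in the controls and 3.49, 3.41 and 3.42 after NDMA. Its difference was -0.18 ± 0.08 (95% interval -0.38 to 0.01, adjusted p = 0.285). Gdf15, a secreted stress cytokine of the TGF-beta family, read -0.21, 0.12 and 0.06 in the controls and -0.14, 0.20 and -0.25 after NDMA. The groups were interleaved, with differences of -0.05 ± 0.15 (95% interval -0.42 to 0.31, adjusted p = 0.877) and -0.01 ± 0.14 (-0.34 to 0.33, adjusted p = 0.986) by its 2 probes. With normexp the differences of the brightest probes of Perp and Gadd45a were -0.14 and -0.11. The intervals of Perp, Gadd45a and Gdf15 do not reach a doubling in either direction.

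The 10 genes also differed between the treated animals. Measured from the control mean, NDMA animal 2 stood highest of the treated animals for 8 of the 10 brightest probes, and for all of the 5 genes whose groups did not overlap upwards. Plk2 was 3.02 above the control mean in animal 2 against 1.89 and 1.68 in animals 1 and 3. Phlda3 was 2.22 above it against 0.94 and 1.25, and Ccng1 1.57 against 0.86 and 0.78. The mean over the 10 genes was 0.54, 1.00 and 0.48 in animals 1 to 3. Animal 2 was also the highest treated animal for 52.6% of all probes tested whose treated animals lay above the controls, and for 32.8% of all probes tested.

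**Figure D3:**
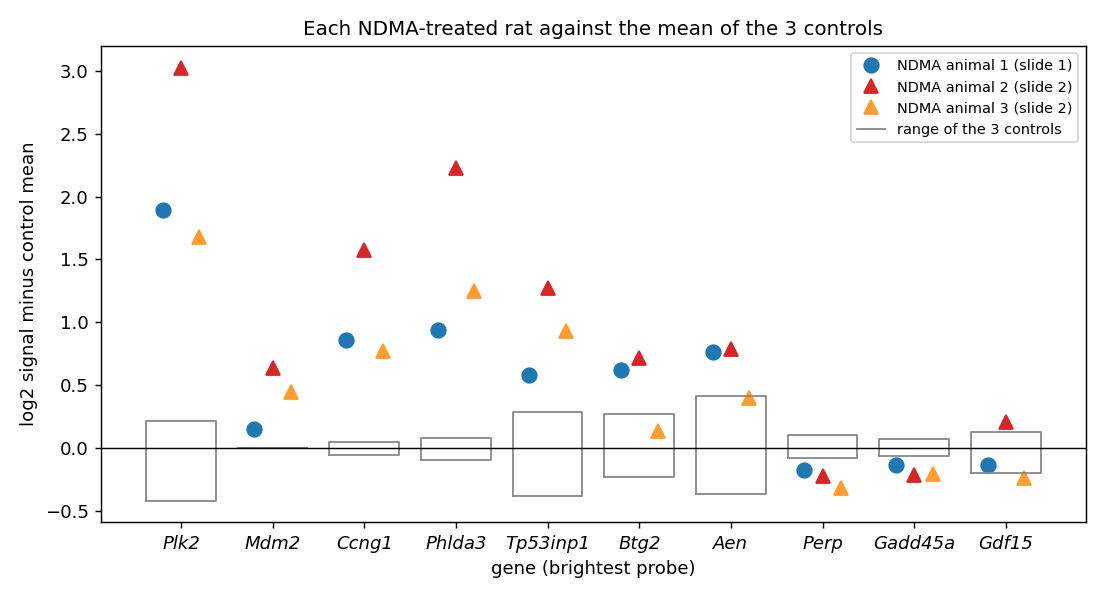
Log2 signal minus the control mean of the brightest probe of each gene for each NDMA-treated rat, with boxes spanning the range of the 3 controls; the circle is the animal on slide 1 and the triangles are the animals on slide 2. NDMA animal 2 stands apart for Plk2 (3.02), Phlda3 (2.22) and Ccng1 (1.57), while the 3 animals lie close together for Perp and Gadd45a.

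Animal 2 was on slide 2 with animal 3, and slide 2 was scanned on another day and held no control. Slide 1 held the 3 controls and NDMA animal 1. Within slide 1, and equally with the slide as a fixed block, the log2 differences were 1.89 for Plk2, 0.86 and 0.96 for the brightest and the other probe of Ccng1, 0.94 for Phlda3, 0.58 for Tp53inp1 and 0.15 for Mdm2. Those of Btg2 and Aen were 0.62 and 0.77, and those of Perp, Gadd45a and Gdf15 were -0.17, -0.14 and -0.13. The 7 genes with a difference above 0 over all animals kept that sign, and 7 of the 10 differences were smaller in size than over all animals. Plk2 had an adjusted p of 0.314 in the blocked fit and no member passed there, where 82 of all probes tested (0.19%) did. That fit rests on the 1 treated animal of slide 1. Within slide 1 alone the adjusted p of Plk2 was 0.167, and 0% of all probes passed in limma (4667 at an unadjusted p under 0.05), so these counts say nothing particular about the members.

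For the genes around the members, fixed lists were read by the brightest probe of each gene. Among p53 targets of arrest, repair and metabolism, 48 genes were tested. The test called 4 of them higher and 0 lower, and the median of the list was 0.03. Higher were Gtse1, which shuttles p53 out of the nucleus in G2 (6.03-fold, 2.59 ± 0.31, adjusted p = 0.0133), the spindle gene Ckap2 (5.13-fold, 2.36 ± 0.30, adjusted p = 0.0146), the small GTPase Rap2b (1.78-fold, 0.83 ± 0.15, adjusted p = 0.0414) and Ddias, a gene of replicating cells. In the controls Ddias lay below the limit for a signal well above background. In the treated animals it was higher by at least 2.18-fold (fitted 3.12 ± 0.38, adjusted p = 0.0140). Ddias passed the filter on dim probes only through the treated animals, so its call, counted among the 4, gives no support for a rise. The bound sets the treated mean against the lowest signal well above background on each control array. Such bounds, here and below, hold only for the main background subtraction, and normexp gave differences smaller than they state. With normexp the differences of Gtse1 and Rap2b were 1.26 (adjusted p = 0.0188) and 0.44 (0.0701), and that of Ddias was 0.51 (0.0826). Rap2b passed in 0 of the 6 limma fits without 1 animal (adjusted p from 0.0630 to 0.142). Gtse1 did not pass without control 1 (0.0528), Ckap2 without control 1 or 2 (0.0596 and 0.0521) and Ddias without control 1 or NDMA animal 3 (0.0561 and 0.0604). Gtse1 and Ckap2 are also known as genes of mitosis. The treated animals lay above the controls without overlap for 12 of the 48 genes and below them for 10. Among named genes 12% and 17.3% did so. The 10 include Cdkn1a, which is there by its brightest probe only. Of the genes that did not pass, Psrc1 had the smallest p among the higher (0.90, adjusted p = 0.0556). Among the lower it was Ninj1 (-0.37, adjusted p = 0.127).

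Values are given for 5 other targets of this list, none of which passed. The phosphatase gene Ppm1d and the repair gene Xpc had differences of -0.04 and -0.03, the ribonucleotide reductase subunit Rrm2b -0.12 and the splicing regulator Zmat3 0.30 (adjusted p = 0.230), with its groups apart. Cdkn1a encodes p21, which halts cyclin-dependent kinases on the order of p53. Its brightest probe was at -0.19 ± 0.08 (adjusted p = 0.273), while its dimmer probes were at 1.92 ± 0.42 (0.0783) and 2.26 ± 0.49 (0.0745), so Cdkn1a is given no direction.

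Apoptosis targets numbered 11 in the test, of which 2 rose and 0 fell; their median was 0.28. They were Bbc3, which encodes PUMA (2.07-fold, 1.05 ± 0.14, adjusted p = 0.0179), and the inflammatory protease Casp1 (1.96-fold, 0.97 ± 0.11, adjusted p = 0.0105). Without 1 animal Bbc3 passed only when NDMA animal 1 was left out, and its adjusted p without control 1, 2 or 3 or NDMA animal 2 or 3 was 0.0710, 0.0532, 0.0571, 0.0518 and 0.0710. The death receptor gene Fas had a difference of 1.23 ± 0.25 (adjusted p = 0.0604). Of 18 tested regulators and relatives of p53, 0 passed in limma, where 2 had an unadjusted p under 0.05, and the median was -0.07. The kinase gene Chek1 was at 0.68 ± 0.19 (adjusted p = 0.137) and Twist1 at -0.35 ± 0.14 (adjusted p = 0.253).

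**Figure D4:**
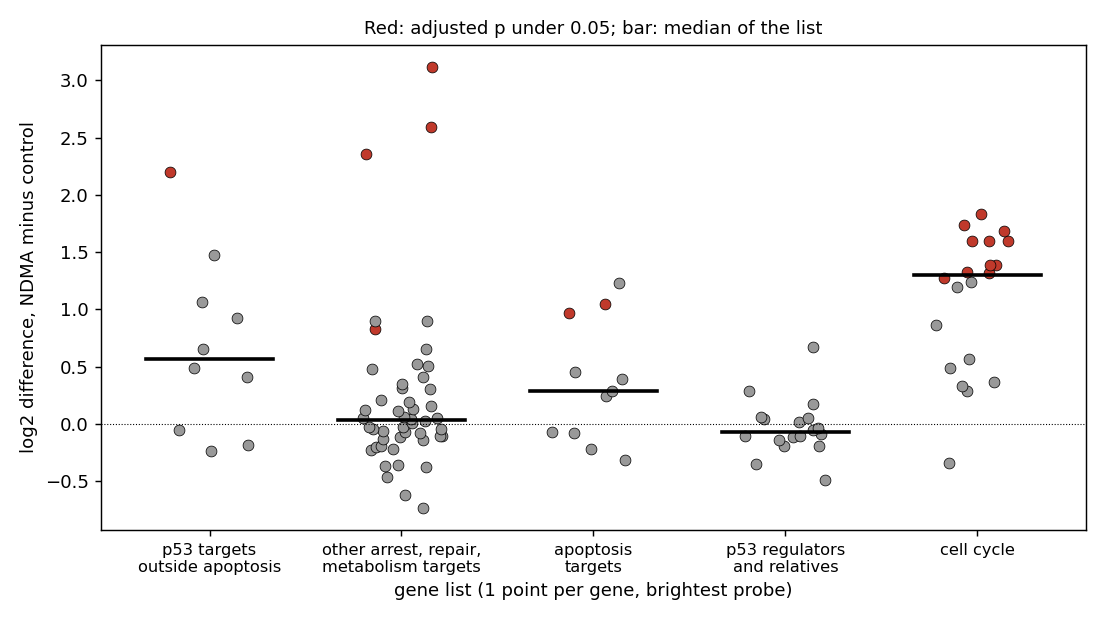
Log2 difference, NDMA minus control, of the brightest probe of each tested gene in 5 lists; red points have an adjusted p under 0.05 and bars are list medians. The medians are 0.57 for the 10 p53 targets outside apoptosis, 0.03 for the other targets of arrest, repair and metabolism, 0.28 for apoptosis targets, -0.07 for regulators and relatives of p53, and 1.30 for cell-cycle genes.

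Many cell-cycle, macrophage and T cell genes were higher in the same animals. The cell-cycle list had 20 tested genes, 11 called higher and 0 lower, and its median was 1.30. Among them were Cep55, which acts in the final separation of dividing cells (3.33-fold, 1.74 ± 0.14, adjusted p = 0.00662), the cyclins Ccnb2 (1.60 ± 0.17) and Ccne1 (1.69 ± 0.19, or 1.09 with normexp), and the replication factor Mcm3 (1.60 ± 0.19). Kif11 went the other way without a call, its treated animals lying below all controls (-0.34 ± 0.13, adjusted p = 0.244). Its other probe was at -0.55. The mean of the list above the control mean was 0.86, 1.44 and 0.96 in NDMA animals 1 to 3, with animal 2 the highest, as for the 10 p53 targets. This peak was not limited to these 2 lists. Animal 2 was also highest for the other targets of arrest, repair and metabolism (0.20, 0.28 and 0.18). The same held for apoptosis targets (0.23, 0.45 and 0.39) and immediate early genes (0.44, 0.54 and 0.29), but not for B cell markers (0.62, 0.64 and 0.98). Of 9 tested macrophage and dendritic cell markers, out of 10 listed, 7 rose, and their summed signal, in multiples of the 75th percentile of the array, was 26.1 to 31.9 in the controls and 60.9 to 72.5 after NDMA. They included the lysosomal protein gene Cd68 (1.48 ± 0.13), the complement genes C1qa and C1qb (1.31 and 1.33) and Ptprc, which encodes CD45 (1.29). Itgam and Adgre1 overlapped between groups and were not called (0.81 ± 0.59 and 0.15 ± 0.17, adjusted p = 0.498 and 0.664). Cd163 did not pass the filter on dim probes. Of 9 T and NK cell markers 6 rose, with a summed signal of 2.93 to 3.53 against 6.59 to 7.36. They included the receptor chains Cd247, Cd3d and Cd3g (1.96, 1.29 and 2.26) and the kinase Zap70 (1.20). The 6 that rose are genes of T cells (Cd3d, Cd3e, Cd3g, Cd247, Cd4 and Zap70), while the NK cell genes Klrd1 and Nkg7 were at -0.58 ± 0.19 (adjusted p = 0.194) and -0.10 ± 0.19 (0.813). Of these 6, Cd3e passed the filter on dim probes only through the treated animals. These 2 lists did not peak in animal 2, with means above the control mean of 0.87, 1.05 and 1.17 for macrophages and 1.12, 1.09 and 1.16 for T and NK cells in animals 1 to 3. The part of dividing cells and of leukocytes in the values of the 10 genes was not tested.

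The labelled tissue was checked against its defining transcripts. All 8 proximal tubule markers were well above background on the 6 arrays, and all 8 had a difference below 0 (median -0.30). For 7 of the 8 the treated animals lay below the controls without overlap, where 17.3% of named genes did so. In limma 6 were lower at an unadjusted p under 0.05, where 10.1% of named genes were. Only Lrp2, which encodes the endocytic receptor megalin, was called (-0.57 ± 0.10, adjusted p = 0.0439). That call held in 0 of the 6 limma fits without 1 animal (adjusted p from 0.0577 to 0.141). The summed signal of the 8 markers was 1353 to 1429 in the controls and 1026 to 1192 after NDMA. Across all arrays, between 43016 and 46248 probes were well above background, and 2 arrays of one group correlated at 0.992 to 0.995 over probes, 2 of different groups at 0.985 to 0.990, where probes are no replicates.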

How the data were processed

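Renal cortex RNA of 3 control and 3 NDMA-treated rats was measured on 1 array each; each animal was sampled separately, as the series' design text states. The authors obtained the intensity of each spot from Agilent Feature Extraction (10.7.1.1 per the file headers, given as 10.7 in the submitters' processing notes). That program subtracted background and spatial trend from the deposited intensity within each array and did not scale arrays to each other. The value table of the authors is a linear ratio, which matched the processed intensity over the 75th percentile of each array to within 0.00174 (log2, values above 0.1), so its scale and direction are known and no centring was found; column medians were 0.112, 0.110 and 0.114 in the controls and 0.115, 0.112 and 0.114 after NDMA.

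Here the processed intensity was taken to log2 minus each array's 75th percentile over non-control probes (993 to 1053 on slide 1, 1310 and 1299 on slide 2). Spots flagged as feature outliers were set missing, 18 values in all and none of a member. Probes well above background on all 3 arrays of a group were kept. A gene dim in the controls could thus enter through the treated animals alone, and its call is then no support for a rise. Among the called genes this held for Ddias, Egr2, Cd3e and the cell-cycle gene Aurkb, and for others given a bound. Of 29123 probes with an NM accession, 27348 matched 1 gene of the RefSeq table (GRCr8). The comparison used limma (3.58.1, under R 4.3.3) with lmFit and eBayes, 4 residual and 2.40 prior degrees of freedom, and was tested on simulated data. With 3 animals a side, 0.1 is the smallest p of an exact permutation test, so none is given. The number of arrays limits the precision.

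Named are all 10 members, Cdkn1a, and from each list up to 4 genes past the threshold by smallest p, or the 2 with the smallest p where none passed. Psrc1, Ninj1, Klrd1, Nkg7, Ppm1d, Xpc, Rrm2b, Zmat3, Fas, Atf4, Ddit3, Trib3, S100a8 and S100a9 were chosen after their values were seen. Also named outside that rule are Kif11, Aurkb, Itgam, Adgre1, Cd163, Cd3e and Cd4. The members and lists were chosen with earlier results of these data known. Most genes of the lists enter only their counts and medians, and some were left out and are not reported here. The lists are p53 targets of arrest, repair and metabolism (55 entries, 48 tested), apoptosis targets (18, 11), regulators and relatives of p53 (25, 18), integrated stress response, immediate early and cell-cycle genes, and markers of 10 cell types. The alternatives tried were other scalings, background correction, filters, variance models, slide and replicate blocks, the authors' value table and leaving out each animal.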

Additional observations from a re-analysis of the deposited data

How the results depend on the processing

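Plk2 kept its direction under all 19 alternatives and its call under 11, and over the alternatives other than leaving out an animal its log2 difference ran from 1.30 to 2.22. Of the 17 member probes, only the 2 of Gdf15 changed sign, and only without 1 animal (from -0.19 to 0.040 for the brightest and from -0.11 to 0.075 for the other). The count of member genes called, 1 here, was 3 with normexp and with normexp and quantile normalisation, 2 with a trended and robust variance and with the slide as a random block, and 0 without the filter, with the slide as a fixed block and on slide 1 alone. For member probes, 2 here, it was 1 with median scaling, with quantile normalisation and with the replicate block, 4 with both normexp settings, 3 with the trended variance and with the random block, and 0 without the filter, with the fixed slide block and on slide 1. Other p53 targets called numbered 6 here, 11 with the trended variance, and 0 with the fixed slide block and on slide 1.

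Over all probes 1289 were called, against 488 without the filter, 82 with the fixed slide block, and 0 on slide 1 alone in limma, where 4667 had an unadjusted p under 0.05. Of the calls 83.8% were higher, against 64.6% with normexp (943 higher, 516 lower), 79.2% with normexp and quantile normalisation, 74.1% with the trended variance, 94.3% without the filter and 95.3% with the replicate block. Leaving out 1 animal gave 464 to 987 probes, 0 member genes in 5 of the fits and 3 without NDMA animal 2, 0 to 4 member probes, 1 to 7 other targets and a member median of 0.44 to 0.74.

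Animals of both groups are numbered 1 to 3, but same-numbered animals did not deviate together (correlations of 0.03, -0.05 and 0.01), so the replicate block shares only a number; with it 511 probes passed. On slide 1 and with the fixed slide block Kdr had the opposite sign (0.019). Without 1 animal, Cyp21a1 ran from -0.22 to 0.026. The cause of these changes was not tested.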

Other observations

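Several of the 10 genes are also known to answer signals other than p53: Gdf15 and Gadd45a are induced in the integrated stress response, and Btg2 and Plk2 behave as immediate early genes in many cells. Of 16 genes tested from the integrated stress response 1 was called higher and 0 lower (median 0.10). It was Mthfd2, a mitochondrial enzyme of folate metabolism (1.98-fold, 0.99 ± 0.17, adjusted p = 0.0391). The transcription factor genes Atf4 and Ddit3 were at 0.04 and 0.09, and Trib3 at 0.75 ± 0.16 (adjusted p = 0.0689). The immediate early list had 19 tested genes, 2 called higher and 0 lower (median 0.30). Fos, a subunit of AP-1, was 1.92-fold higher (0.94 ± 0.15, adjusted p = 0.0289, 0.0615 with normexp). Egr2, a zinc-finger factor, was below the detection limit in the controls and at least 3.15-fold higher (adjusted p = 0.0284), though with normexp its log2 difference was 0.53. Egr2 passed the filter only through the treated animals, so its call, counted among the 2, gives no support for a rise. Without 1 animal, Mthfd2 and Fos each passed in 1 of 6 fits (without control 2 and without NDMA animal 2) and Egr2 in 1 (without control 3).

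The other cell types showed fewer calls. Of 4 tested B cell markers 2 rose (Cd37, 0.85 ± 0.10, and Blk, at least 1.71-fold). Of 5 neutrophil and mast cell markers 2 rose, the mast cell proteases Cma1 (at least 4.26-fold) and Mcpt1 (3.79 ± 0.71), while the neutrophil genes S100a8 and S100a9 were at 0.03 and -0.01. With normexp Cd37, Blk, Cma1 and Mcpt1 did not pass (0.26, 0.17, 0.72 and 2.12). Blk, Cma1 and Mcpt1 were not well above background on all 6 arrays, so their calls give no support for a rise. Of 6 fibroblast and smooth muscle markers 1 rose, the filament gene Vim (0.70 ± 0.11), which passed in 1 of 6 fits without 1 animal. In limma 0 of 7 loop, distal tubule and collecting duct markers, 0 of 4 podocyte, 0 of 5 endothelial and 0 of 3 adrenal cortex markers passed (1, 0, 0 and 0 at an unadjusted p under 0.05), with medians of -0.18, 0.12, -0.09 and -0.11. The genes of smallest p there were Aqp2 (-0.46) and Atp6v1b1 (-0.18), Wt1 (0.25) and Podxl (0.22), Kdr (-0.20) and Flt1 (-0.20), and Hsd3b1 (-0.50) and Cyp21a1 (-0.11).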
